A study of Mus musculus with 8 samples.

Results

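The Wnt and beta-catenin barrier pathway was described through 10 genes: *Fzd4*, *Tspan12*, *Adgra2* and *Reck*, which encode a receptor and its partners at the cell surface, and *Axin2*, *Lef1*, *Tcf7*, *Apcdd1*, *Nkd1* and *Notum*, which are transcribed in response to beta-catenin. The 10 genes were taken from a list of symbols and were matched to the Ensembl identifiers of the 49315 genes in the count files. All 10 were found, and all 10 were among the 16887 genes that passed the filter on low counts. Each had at least 185 reads in each of the 8 libraries, so none passed the filter through 1 group alone.

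Brain endothelial cells (ECs) of 4 mutant and 4 wild-type mouse pups were measured by RNA sequencing, with 1 library per pup. Mutant pups carried R26 GT-Map2k1-GFP/+ and Tg-Cdh5CreER+/-, and their libraries are labelled Map2k1 K57N. Cre driven from the endothelial *Cdh5* promoter removes a stop cassette in the *Rosa* locus, after which a CAG promoter drives an active form of the kinase MAP2K1 together with GFP. The other 4 libraries are labelled Wild type, and the labels do not say whether those pups carried either allele alone. They were drawn at random within the litters of the mutant pups, in matching numbers, on a C57BL/6J background. All litters received tamoxifen at postnatal day 1 (P1), and ECs were isolated at P9 with beads against CD31. Recombination was mosaic, and the paper found the recombined allele in only a minority of the isolated brain ECs. A mutant library therefore mixes recombined with unrecombined ECs, and in which of them a change below arose was not tested. No library of ECs that express unmutated MAP2K1 from the same locus was among the samples.

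Wnt ligands, made mostly by neural cells, hold brain ECs in their barrier state. Wnt7a and Wnt7b are recognised by a complex of ADGRA2 (also called GPR124), RECK and a Frizzled receptor, whereas Norrin acts through FZD4 with LRP5 and TSPAN12. Both routes stabilise beta-catenin, which enters the nucleus and activates genes together with the factors LEF1 and TCF7. Several of those genes restrain the pathway in turn. AXIN2 helps to degrade beta-catenin, APCDD1 inhibits Wnt at the membrane, NKD1 binds Dishevelled, and NOTUM removes the lipid that Wnt ligands need. The levels of these genes are therefore widely read as a measure of the pathway's activity.

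Promoter windows (RefSeq, GRCm38.p6, 250 bases before to 50 bases after each annotated start) were found for 7 of the 10 genes, with 11 starts in all. They were searched on both strands for CTTTGA and CTTTGT, the core letters bound by LEF1 and TCF factors. They differ only in the last base and were counted separately. Of 32851 promoters of the mouse, 16.0% held CTTTGA, 18.7% held CTTTGT and 31.2% held either. Among the 7 genes, 3 of 11 windows held either word, and they belonged to *Lef1*, *Reck* and *Tspan12*. Below, the 250 bases before 4 starts are given 5′ to 3′ on the strand of the gene, because they set the members with a match beside *Axin2*, a standard readout of the pathway without one. The capitals mark the words, all on the opposite strand (read here as TCAAAG or ACAAAG). The *Lef1* window is chr3:131156044-131156293 (plus strand), in an intron of the gene ahead of an internal start. The words begin 180, 146 and 120 bases before that start, and the other 3 *Lef1* windows held none. The *Reck* window is chr4:43875280-43875529 (plus strand) and the *Tspan12* window is chr6:21852534-21852783 (minus strand), both outside the gene. Their words begin 120 and 117 bases before the start. The *Axin2* window is chr11:108920099-108920348 (plus strand), also outside the gene.
Lef1 internal: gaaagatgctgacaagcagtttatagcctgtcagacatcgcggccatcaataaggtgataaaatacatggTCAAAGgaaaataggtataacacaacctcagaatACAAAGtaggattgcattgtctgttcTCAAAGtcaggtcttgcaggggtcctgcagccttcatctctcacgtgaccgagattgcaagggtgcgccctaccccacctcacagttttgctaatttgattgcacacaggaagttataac
Reck: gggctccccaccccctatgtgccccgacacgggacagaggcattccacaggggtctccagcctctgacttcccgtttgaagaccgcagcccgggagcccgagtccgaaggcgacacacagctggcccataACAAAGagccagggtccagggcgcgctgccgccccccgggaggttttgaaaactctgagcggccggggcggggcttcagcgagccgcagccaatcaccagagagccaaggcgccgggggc
Tspan12: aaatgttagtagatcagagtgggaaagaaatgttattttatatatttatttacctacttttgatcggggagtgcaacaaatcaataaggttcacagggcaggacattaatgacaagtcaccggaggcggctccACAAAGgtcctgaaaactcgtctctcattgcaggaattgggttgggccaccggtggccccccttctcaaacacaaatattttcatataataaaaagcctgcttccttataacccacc
Axin2: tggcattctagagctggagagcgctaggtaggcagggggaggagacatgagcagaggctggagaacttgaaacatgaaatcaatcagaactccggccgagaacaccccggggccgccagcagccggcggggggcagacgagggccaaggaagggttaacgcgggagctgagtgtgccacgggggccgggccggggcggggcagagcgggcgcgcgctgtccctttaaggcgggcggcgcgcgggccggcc
A match is a run of letters and not a measured binding site, and the absence of one says only that the letters are not in this window.

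Libraries held between 24833373 and 34196955 reads counted on genes. Normalized counts below are reads scaled by edgeR's TMM method to the mean library size, and levels per length are RPKM (reads scaled by exon length and by library size), on the same scaling. Each gene was tested by quasi-likelihood in edgeR, and its p was adjusted over all 16887 genes after Benjamini and Hochberg. A gene "passed the test" at an adjusted p under 0.05, and was "differentially expressed" if its absolute log2 fold change was also over 1. *Map2k1*, the gene carried by the recombined allele, had 18687, 12660, 12675 and 14306 normalized counts in mutant replicates 1 to 4, and between 1502 and 1758 in wild-type libraries, a difference of 3.18 on the log2 scale (adjusted p = 2.84e-07, edgeR). All 10 endothelial markers were abundant, and their summed normalized counts overlapped between the groups, at 314482 to 375478 in mutant and 285486 to 351063 in wild-type ECs. The list did not move as one, since 3 markers passed the test as higher and 3 as lower. *Cdh5*, whose promoter drives Cre here, was differentially expressed and higher (log2 fold change 1.11, adjusted p = 6.04e-05, edgeR), *Pecam1* and *Emcn* rose by 0.53 and 0.82 on the log2 scale, and *Kdr*, *Cldn5* and *Tek* had log2 fold changes of -0.59, -0.47 and -0.44. Of 7 markers of the oligodendrocyte lineage, 6 were differentially expressed and lower in mutant ECs, with sums of 1877 to 3186 against 3349 to 8884. Of 8 neuronal markers, 5 were lower (2612 to 3703 against 5749 to 7756). *Zic2* gave the largest part of these sums (1728 ± 276 against 4264 ± 380, SD, n = 4). *Syt1*, *Zic1* and *Rbfox3* did not pass the test, and *Rbfox3* had a higher estimate (log2 fold change 1.19, adjusted p = 0.0514, edgeR). Of 6 astrocyte markers, *Gja1*, which ECs also express, was higher and *Aldh1l1* lower, and the sums were 18426 to 22102 against 10876 to 12909. These sums are almost all *Gja1* (19413 ± 2143 against 11132 ± 930, SD, n = 4). *Gfap*, *Aqp4*, *Slc1a3* and *Slc1a2* did not pass the test, with log2 fold changes of 0.24, -0.87, -0.6 and -0.4 (edgeR). Sums of the pericyte, fibroblast, microglia and choroid plexus lists overlapped between the groups, although single markers moved. Of 9 pericyte and smooth muscle markers, *Abcc9* (log2 fold change 1.78), *Kcnj8* (0.81) and *Tagln* (0.73) passed the test as higher. Of 5 fibroblast markers, *Lum* (0.67) and *Col1a1* (0.39) passed as higher and *Pdgfra* (-1.03) as lower. Of 4 markers of choroid plexus and ependyma, *Folr1* (-1.61) and *Foxj1* (-1.23) passed as lower, and of 6 microglial markers 0 passed (edgeR). T cells also use *Tcf7* and *Lef1*, and their 5 markers summed to 14.3 to 33.2 normalized counts in mutant and 44.1 to 53.6 in wild-type ECs, with 1 gene tested and 0 passing (edgeR). The part of these lists in the results below was not tested.

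The receptor genes were measured first. *Fzd4* (ENSMUSG00000049791), on chromosome 7 of GRCm38 from 89404355 to 89413134, encodes the Frizzled receptor of the Norrin route. It had 12086, 13129, 10931 and 8796 normalized counts in mutant replicates 1 to 4, and 10917, 11161, 8694 and 9101 in wild-type replicates 1 to 4. The groups overlapped, and *Fzd4* did not pass the test (0.17 ± 0.13 on the log2 scale, fold change ± standard error, adjusted p = 0.307, edgeR). *Tspan12* (ENSMUSG00000029669), on chromosome 6 from 21771395 to 21852515, encodes the tetraspanin that joins FZD4. It had 2276, 2264, 2033 and 2337 normalized counts in mutant and 2834, 2776, 2562 and 2953 in wild-type replicates. No mutant library reached a wild-type library, and the fall was small, to 80.1% of the wild-type level (-0.32 ± 0.07 on the log2 scale, adjusted p = 0.00418, edgeR).

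*Adgra2* (ENSMUSG00000031486), on chromosome 8 from 27085583 to 27123436, encodes the adhesion receptor of the Wnt7 route. Its normalized counts were 10698, 11165, 10785 and 8851 in mutant and 16035, 16045, 12338 and 12906 in wild-type replicates. The groups did not overlap, although mutant replicate 2 and wild-type replicate 3 were close. *Adgra2* fell to 72.4% of the wild-type level (-0.47 ± 0.11 on the log2 scale, adjusted p = 0.00671, edgeR). *Reck* (ENSMUSG00000028476), on chromosome 4 from 43875530 to 43944806, encodes the membrane-anchored partner that binds Wnt7. It had 1252, 1882, 1545 and 1406 normalized counts in mutant and 3288, 2937, 2618 and 3532 in wild-type replicates, so every mutant library was well below every wild-type library. This was a 2.03-fold fall (-1.02 ± 0.13 on the log2 scale, adjusted p = 1.80e-04, edgeR). *Reck* lay at the limit of 1, and left-out libraries moved its log2 fold change between -1.14 and -0.92. Without mutant replicate 1 (-0.92), mutant replicate 4 (-0.96), wild type replicate 1 (-0.97) or wild type replicate 4 (-0.96) it was no longer differentially expressed, with adjusted p of at most 0.00107 (edgeR).

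The 6 target genes were lower in all 4 mutant libraries than in any wild-type library. In these libraries of pooled cells, fewer cells that express a gene and less RNA per cell cannot be told apart. *Axin2* (ENSMUSG00000000142), on chromosome 11 from 108920349 to 108950783, had 871, 1174, 1828 and 1127 normalized counts in mutant replicates 1 to 4. Wild-type libraries had 3586, 3451, 3255 and 3750, a narrow range. The gene fell 2.81-fold (-1.49 ± 0.18 on the log2 scale, adjusted p = 1.46e-04, edgeR).

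*Lef1* and *Tcf7* encode the DNA-binding partners of beta-catenin and are also its targets. *Lef1* (ENSMUSG00000027985), on chromosome 3 from 131110471 to 131224356, had 695, 941, 890 and 567 normalized counts in mutant and 2331, 2199, 1902 and 2060 in wild-type replicates. It fell 2.75-fold (-1.46 ± 0.15 on the log2 scale, adjusted p = 4.49e-05, edgeR). *Tcf7* (ENSMUSG00000000782), on chromosome 11 from 52252371 to 52283014, had 1811, 2050, 2029 and 1260 normalized counts in mutant and 4708, 4561, 3615 and 3956 in wild-type replicates. The fall was 2.36-fold (-1.24 ± 0.15 on the log2 scale, adjusted p = 1.29e-04, edgeR), the smallest of the 6 targets. *Tcf7l1* and *Tcf7l2*, the other TCF genes, did not pass the test, with log2 fold changes of -0.12 and -0.11 (adjusted p = 0.291 and 0.508, edgeR).

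*Apcdd1*, *Nkd1* and *Notum*, which each inhibit the pathway, fell furthest. *Apcdd1* (ENSMUSG00000071847), on chromosome 18 from 62922327 to 62953195, had 12784, 21229, 19249 and 9082 normalized counts in mutant and 68188, 66294, 54406 and 58540 in wild-type replicates. It fell 3.97-fold (-1.99 ± 0.23 on the log2 scale, adjusted p = 1.10e-04, edgeR). *Nkd1* (ENSMUSG00000031661), on chromosome 8 from 88521354 to 88594884, had 1173, 2841, 3017 and 1194 in mutant and 14203, 14341, 10650 and 11269 in wild-type replicates. The mutant libraries were themselves apart, with replicates 1 and 4 below 2 and 3, and the fall was 6.14-fold (-2.62 ± 0.32 on the log2 scale, adjusted p = 1.26e-04, edgeR). *Notum* (ENSMUSG00000042988), on chromosome 11 from 120653788 to 120661175, had 234, 600, 936 and 246 normalized counts in mutant and 3837, 3773, 2838 and 3464 in wild-type replicates. At 6.91-fold, this was the largest fall of the 10 genes (-2.79 ± 0.39 on the log2 scale, adjusted p = 2.99e-04, edgeR).

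The exons of *Notum* overlap those of the antisense genes *Notumos* and *Myadml2os*, which also fell, with log2 fold changes of -2.96 and -3.24 (adjusted p = 8.02e-05 and 1.75e-04, edgeR). *Notumos* had 735 ± 59.6 normalized counts in wild-type ECs (SD, n = 4). The exons of *Lef1* overlap the antisense gene *Gm43352*, which fell by 1.51 on the log2 scale from 322 ± 21.4 normalized counts (SD, n = 4). Use of the strand in counting is not stated, so reads from these genes and their antisense partners cannot be told apart. *Axin2*, *Adgra2* and *Tspan12* each overlap 1 antisense gene, with mean normalized counts of 21.9 (*Gm11670*), 161 (*Brf2*) and 5.74 (*Gm30270*). No other gene shared exons with *Fzd4*, *Reck*, *Tcf7*, *Apcdd1* or *Nkd1*.

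**Figure D1:**
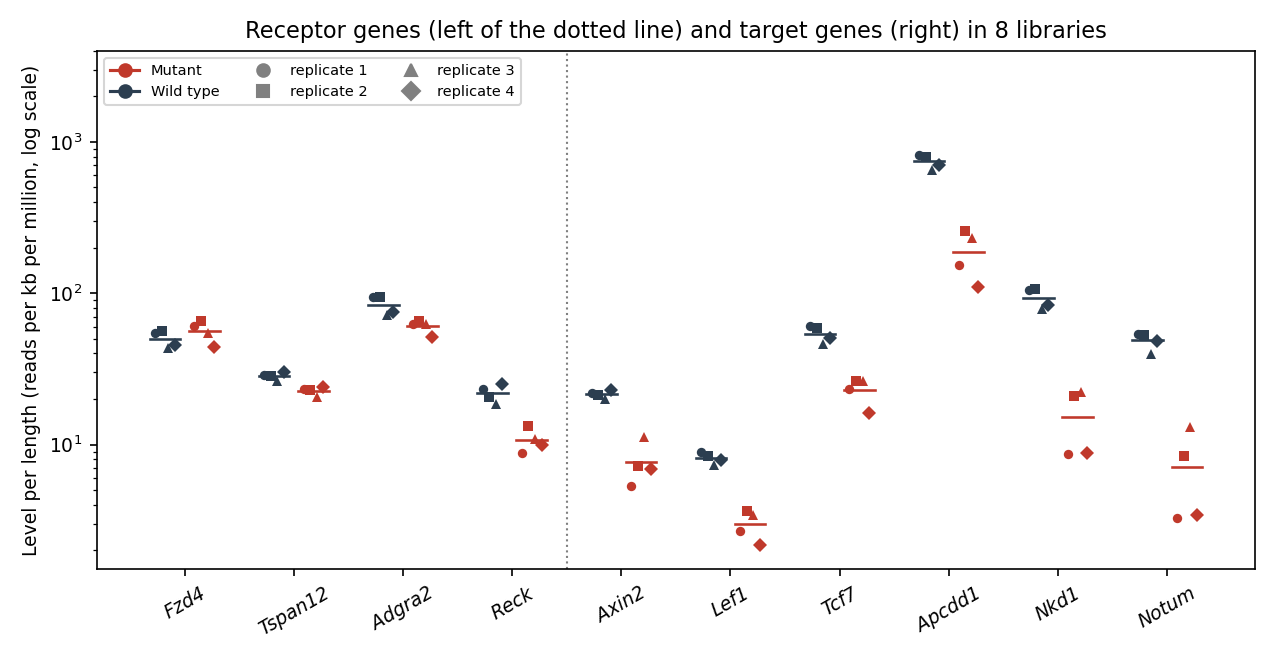
Level per length of the 4 receptor genes and the 6 target genes in RPKM (log axis), 1 point per library, with the replicate number as the shape and the group mean as a bar. Wild-type and mutant points are interleaved for Fzd4, and all mutant points lie below all wild-type points for the other 9 genes.

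Receptors and targets were then set side by side. Of the 4 receptor genes, 3 passed the test and were lower, and 1 of them, *Reck*, was differentially expressed. Of the 6 targets, 6 were differentially expressed and lower. Over all 16887 genes, 14.0% were differentially expressed, 8.05% being lower and 5.9% higher in mutant ECs. In all, 44.4% of genes passed the test, 22.9% as lower and 21.5% as higher. The groups did not overlap for 9 of the 10 members, against 42.5% of all genes, with the mutant libraries below for 21.9% and above for 20.6%. The median log2 fold change was -0.39 over the receptors and -1.74 over the targets, beside -0.02 over all genes tested. The log2 fold changes of the receptors ranged from -1.02 to 0.17. Those of the targets ranged from -2.79 to -1.24, so the 2 ranges did not meet. *Reck* (-1.02 ± 0.13, standard error) and *Tcf7* (-1.24 ± 0.15) were close, however. With 1 library left out they ranged from -1.14 to -0.92 and from -1.31 to -1.08, which cross. The crossing values come from different fits. Within each such fit *Reck* fell less than *Tcf7*, as without mutant replicate 4 (-0.96 and -1.08). In mutant replicate 1, *Reck* (40.5% of the wild-type mean) was below *Tcf7* (43.0%). In mutant replicate 3, *Reck* (49.9%) was below *Axin2* (52.1%). The members were chosen with earlier results of these data known, and no p is given for the lists.

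**Figure D2:**
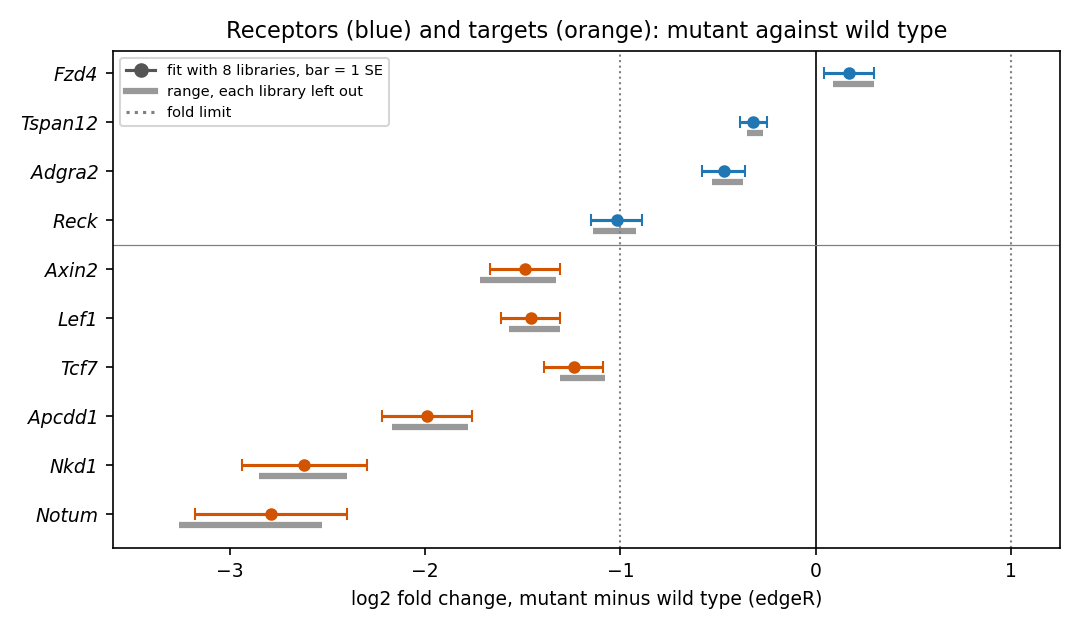
log2 fold change of each member, mutant minus wild type, from the edgeR fit (points, with bars of 1 standard error), above a grey bar for its range when any 1 of the 8 libraries is omitted. The 4 receptors run from 0.17 for Fzd4 to -1.02 for Reck, at the fold limit (dotted), and the 6 targets run from -1.24 for Tcf7 to -2.79 for Notum.

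Within each library, the median level of a set was also expressed on the log2 scale relative to the wild-type mean of each gene. For the receptors it was -0.36, -0.33, -0.43 and -0.47 in mutant replicates 1 to 4. For the targets it was -2.14, -1.56, -1.47 and -2.34. The difference of targets minus receptors was between -1.87 and -1.04 in mutant libraries and between -0.04 and 0.03 in wild-type libraries. The wild-type values centre near 0 by construction, because each gene was divided by its own wild-type mean, so only their spread is informative. Mutant replicates 1 and 4 held the 2 lowest mutant values for 6 of the 6 targets, and replicates 2 and 3 the 2 highest. This order was not particular to the targets. *Reck* had it, at 40.5% and 45.4% of the wild-type mean against 60.8% and 49.9%. *Adgra2* had it by less, at 74.6% and 61.8% against 77.9% and 75.3%. *Fzd4* and *Tspan12* did not have it. In replicates 1 and 4, *Notum* was at 6.72% and 7.07% of the wild-type mean and *Nkd1* at 9.30% and 9.46%. Replicates 2 and 3 had 17.3% and 26.9% for *Notum* and 22.5% and 23.9% for *Nkd1*. *Map2k1* was highest in replicates 1 and 4 (18687 and 14306 normalized counts). Replicate 4 was nearer to replicates 2 and 3 (12660 and 12675) than to replicate 1. With 4 mutant libraries no correlation can be given, and a link between *Map2k1* and the targets was not tested.

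**Figure D3:**
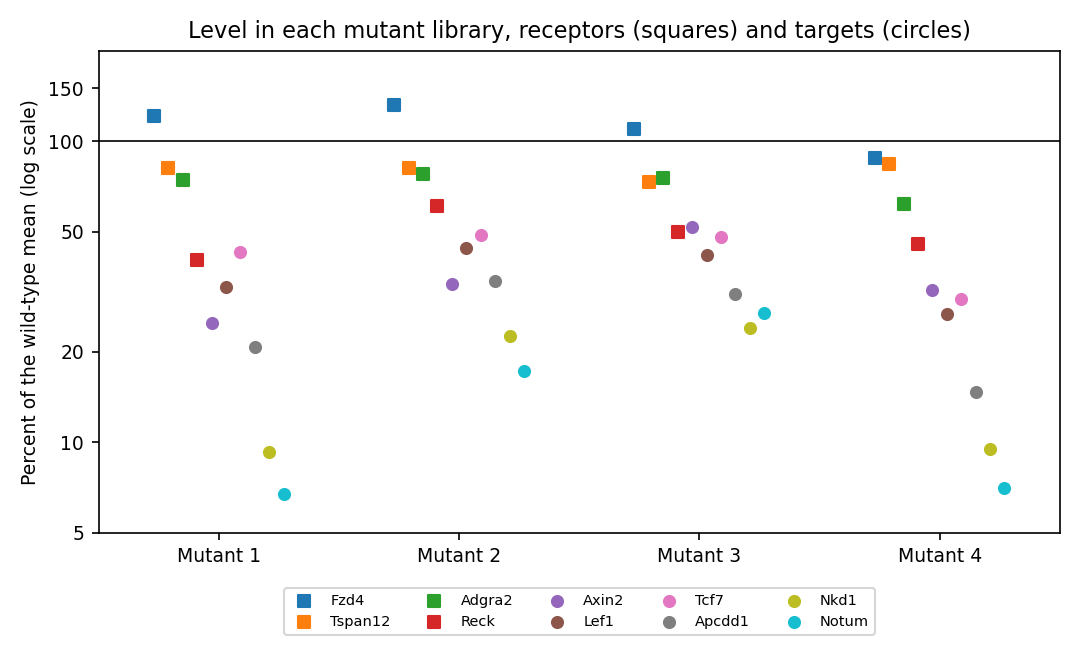
Level of each member in the 4 mutant libraries, as a percent of the mean of the 4 wild-type libraries (log axis), with squares for receptors and circles for targets. Nkd1 and Notum lie under 10% in replicates 1 and 4 and between 17.3% and 26.9% in replicates 2 and 3. Tspan12 and Adgra2 stay between 61.8% and 84.0% throughout, and Reck lies between 40.5% and 60.8%.

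The sample labels carry 3 prefixes, each with libraries of both groups, and the labels do not say what a prefix stands for. One prefix covers replicates 1 and 2, and the others cover replicate 3 and replicate 4. Within the first, the log2 ratio of mutant over wild type was -1.78 for *Axin2*, -1.47 for *Lef1*, -1.26 for *Tcf7*, -1.98 for *Apcdd1*, -2.83 for *Nkd1* and -3.19 for *Notum*. Replicate 3 alone gave smaller falls, of -0.83 for *Axin2*, -0.83 for *Tcf7* and -1.60 for *Notum*, and replicate 4 gave -1.73, -1.65 and -3.82. All 6 targets, *Reck*, *Adgra2* and *Tspan12* were lower in each prefix. For *Fzd4* the ratio was 0.19, 0.33 and -0.05. A prefix with 1 library per group gives no test of its own.

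Levels per length place the 10 genes on a common scale. In wild-type ECs *Apcdd1* stood far above the rest at 746 ± 78.3 RPKM (SD, n = 4). *Nkd1* (93.5 ± 14.3, SD, n = 4) and *Adgra2* (83.8 ± 11.6, SD, n = 4) came next, with overlapping libraries. *Tcf7* (54.2 ± 6.60), *Fzd4* (50.1 ± 6.29) and *Notum* (48.8 ± 6.40, all SD, n = 4) could not be ordered beyond their spread. *Tspan12* followed at 28.4 ± 1.67 (SD, n = 4). *Reck* and *Axin2*, at 21.9 ± 2.83 and 21.5 ± 1.29 (SD, n = 4), overlapped, and *Lef1* was lowest at 8.16 ± 0.709 (SD, n = 4).

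The order was different in mutant ECs. *Apcdd1* was still highest, at 188 ± 68.1 RPKM (SD, n = 4). The receptors *Adgra2* (60.7 ± 6.06) and *Fzd4* (56.5 ± 9.34, both SD, n = 4) came next and overlapped each other. *Nkd1* moved from the second to the sixth place, at 15.2 ± 7.49 (SD, n = 4). *Notum* moved from the sixth to the ninth, at 7.07 ± 4.69 (SD, n = 4). From *Tcf7* (23.003 ± 4.74, SD, n = 4) down to *Lef1* (2.97 ± 0.667, SD, n = 4), each gene overlapped its neighbour in the order.

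The rest of the pathway was described by 128 entries of lists sorted by role, of which 127 matched a gene and 108 were tested. Of these, 25 were differentially expressed and lower in mutant ECs and 3 were higher. A further set passed the test with smaller changes, giving 51 lower and 10 higher at an adjusted p under 0.05 alone, and 47 did not pass. Over all 16887 genes, 8.05% were differentially expressed and lower and 5.9% higher. At an adjusted p under 0.05 alone, 22.9% of all genes were lower and 21.5% higher. The counts of each list below are to be read beside these shares. As for the members, the lists were written with earlier results known.

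**Figure D4:**
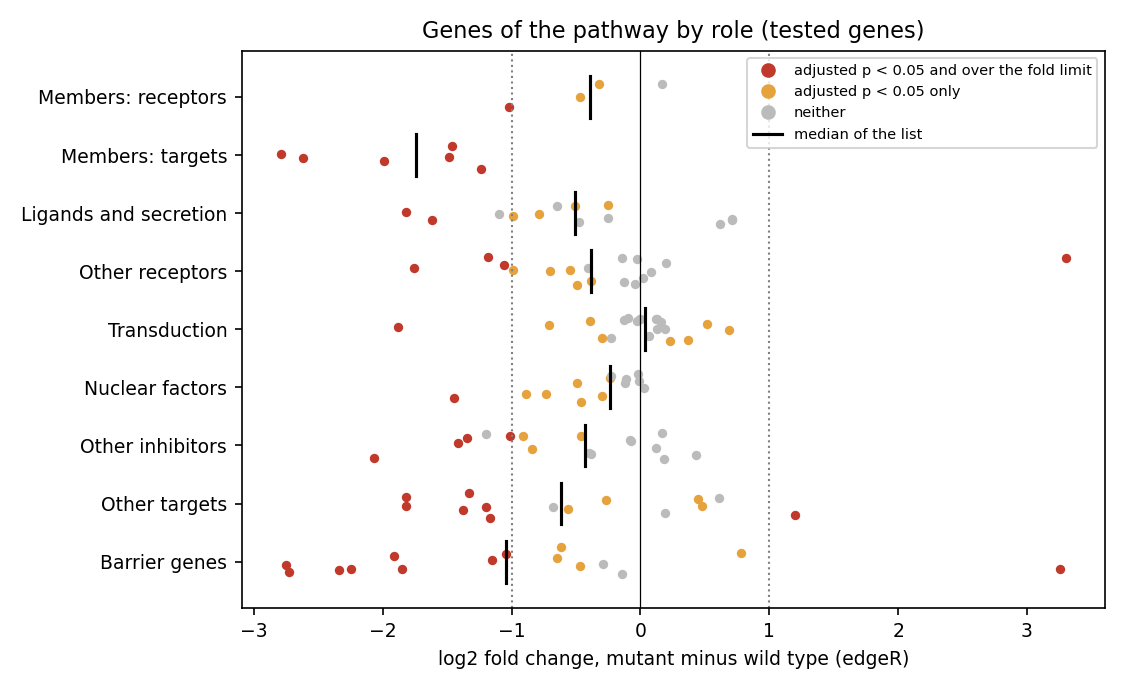
log2 fold change, mutant minus wild type, of each tested gene of the pathway (points), grouped by role, coloured by whether it passed the test and the fold limit, with the median of each list as a bar. The target members and the barrier genes have the lowest medians (-1.74 and -1.04), the transduction genes centre on 0.04, and Fzd10 and Plvap lie far to the right at 3.30 and 3.26.

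Of 26 genes for ligands and their release, 13 were tested, and 6 passed the test, all lower (median log2 fold change -0.51). ECs are not the main source of barrier Wnts, and *Wnt7a* and Norrin (*Ndp*) were below the filter. *Wnt7a* had 11.9 ± 4.85 normalized counts in wild-type and 2.45 ± 1.91 in mutant ECs, and *Ndp* 5.83 ± 1.88 and 4.07 ± 5.40 (SD, n = 4). *Wnt7b*, with a wild-type mean of 20.4, was tested and did not pass (log2 fold change -0.65, adjusted p = 0.106, edgeR). *Wnt5b*, a ligand of the pathway branch that does not use beta-catenin, fell from 442 ± 45.0 to 144 ± 29.4 normalized counts (SD, n = 4, log2 fold change -1.62, adjusted p = 3.77e-05, edgeR). *Rspo1*, an R-spondin, fell from 17.97 ± 6.54 to 4.95 ± 4.56 (SD, n = 4, adjusted p = 0.0278, edgeR), with few reads. *Wls*, which escorts Wnt proteins to the surface, fell by 0.25 on the log2 scale (adjusted p = 0.00932, edgeR). *Wnt5a* did not pass, at a log2 fold change of -0.48 (adjusted p = 0.081, edgeR).

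Among 17 other receptors and co-receptors, 8 passed the test and were lower, and 1 was higher. *Fzd1* fell from 1561 ± 39.5 to 689 ± 167 normalized counts (SD, n = 4), with a log2 fold change of -1.18 (adjusted p = 1.52e-04, edgeR). *Fzd2* and *Lgr6*, an R-spondin receptor, fell at low levels (47.4 and 40.6 normalized counts in wild-type ECs, log2 fold changes -1.06 and -1.76), and the libraries of the groups overlapped for *Fzd2*. *Fzd6*, which had the highest normalized count of the list, fell by 0.38 on the log2 scale (adjusted p = 0.0193, edgeR). *Lrp5*, the co-receptor of the Norrin route, did not pass the test (adjusted p = 0.811, edgeR), at -0.03 on the log2 scale with a standard error of 0.08. *Fzd10* was the exception in direction, with 11.1 ± 6.80 normalized counts in wild-type and 113 ± 23.9 in mutant ECs (SD, n = 4, log2 fold change 3.30, adjusted p = 2.34e-04, edgeR).

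The transduction list holds the Dishevelled genes, the destruction complex and beta-catenin, and its median log2 fold change was 0.04. Of its 20 genes, 4 passed the test as higher and 4 as lower, close to the shares of 21.5% and 22.9% over all genes. *Ctnnb1*, which encodes beta-catenin, had 42918 ± 657 normalized counts in mutant and 43831 ± 2323 in wild-type ECs (SD, n = 4) and did not pass (-0.03 ± 0.07 on the log2 scale, adjusted p = 0.751, edgeR). RNA levels do not report the stability of the protein, which is where the pathway acts. *Csnk1a1*, the kinase that primes beta-catenin for degradation, did not pass either (log2 fold change 0.19, adjusted p = 0.0719, edgeR). *Apc2* was the only gene of the list that was differentially expressed, from 308 ± 170 to 83.9 ± 19.1 normalized counts (SD, n = 4, adjusted p = 0.00261, edgeR). *Apc2* is best known from neurons, and 5 of 8 neuronal markers were lower in mutant ECs, as given above. Their part in this was not tested.

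Of 13 other nuclear factors, 7 passed the test, all lower (median -0.24). *Tle2*, a co-repressor, fell from 169 ± 22.0 to 62.0 ± 12.1 normalized counts (SD, n = 4, log2 fold change -1.45, adjusted p = 1.75e-04, edgeR). The abundant co-repressors *Tle3* and *Ctbp1* did not pass, with log2 fold changes of 0.03 and -0.01 (adjusted p = 0.78 and 0.906, edgeR).

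Inhibitors outside the members numbered 16 among the genes tested, and 7 of them passed the test as lower and 0 as higher. *Dkk2*, a secreted antagonist of LRP5 and LRP6, fell from 1050 ± 170 to 391.9 ± 36.1 normalized counts (SD, n = 4, log2 fold change -1.42, adjusted p = 2.22e-05, edgeR). *Nkd2*, the paralog of *Nkd1*, fell from 413 ± 28.2 to 204 ± 53.0 (SD, n = 4, log2 fold change -1.01, adjusted p = 0.00109, edgeR). *Znrf3*, a ligase that removes Frizzled receptors and is itself a Wnt target, fell by 0.84 on the log2 scale (adjusted p = 8.78e-04, edgeR). *Sostdc1* and *Shisa2* fell at low levels, with wild-type means of 86.7 and 50.2 normalized counts, and the groups overlapped for *Sostdc1*. *Kremen1*, a co-receptor for DKK proteins, did not pass (log2 fold change 0.17, adjusted p = 0.105, edgeR).

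The list of other targets held 14 genes, of which 8 passed the test as lower and 3 as higher (median -0.62). *Tnfrsf19*, a receptor also called TROY, fell from 6797 ± 1198 to 1923 ± 978 normalized counts (SD, n = 4, log2 fold change -1.82, adjusted p = 0.00115, edgeR). *Sp5*, a transcription factor that is a direct target in many tissues, fell from 318 ± 46.6 to 90.5 ± 40.7 (SD, n = 4, log2 fold change -1.82, adjusted p = 4.94e-04, edgeR). The brain endothelial transcription factors *Foxq1*, *Sox17* and *Foxf2* all fell, with log2 fold changes of -1.38, -1.20 and -1.17 (adjusted p between 8.82e-05 and 9.31e-04, edgeR). *Myc* went the other way, from 1136 ± 109 to 2616 ± 453 normalized counts (SD, n = 4, log2 fold change 1.20, adjusted p = 5.71e-05, edgeR). The widely expressed *Ppard* fell by 0.27 on the log2 scale (adjusted p = 0.0107, edgeR), and *Mmrn2*, an endothelial matrix gene, rose by 0.48 (adjusted p = 0.0105, edgeR).

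Genes of the blood-brain barrier that depend on the pathway were counted last, together with *Plvap*, which the pathway keeps low. Of 15, 11 passed the test as lower and 2 as higher, with a median log2 fold change of -1.04. The 2 higher genes were *Plvap* and *Abcg2*. Unlike most of the barrier genes, *Abcg2* rose, by 1.71-fold (log2 fold change 0.78, adjusted p = 1.47e-04, edgeR), and its groups did not overlap. *Tfrc*, the transferrin receptor, and *Spock2*, a matrix proteoglycan, fell 6.73-fold and 6.65-fold, on the scale of *Notum* and *Nkd1*. The lipid transporter *Mfsd2a* fell 5.06-fold, and the solute carriers *Slc38a5*, *Slco1c1*, *Slc16a1* and *Slc7a5* fell 4.74-fold, 3.77-fold, 3.60-fold and 2.06-fold. *Lsr*, a protein of tricellular junctions, fell 2.22-fold. Changes were smaller for *Cldn5*, *Ocln* and *Abcb1a*, which passed as lower at log2 fold changes of -0.47, -0.62 and -0.65 (edgeR). *Tjp1* did not pass the test (log2 fold change -0.29, adjusted p = 0.0551, edgeR). *Plvap*, which forms the diaphragms of fenestrae and is silenced as the barrier matures, rose 9.56-fold, from 924 ± 118 to 8836 ± 3014 normalized counts (SD, n = 4, adjusted p = 5.78e-06, edgeR). *Slc2a1*, the glucose transporter of the barrier, did not pass the test (-0.14 ± 0.11 on the log2 scale, adjusted p = 0.329, edgeR).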

How the data were processed

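RNA from brain ECs of 8 pups was sequenced by the authors, who used Trimmomatic for trimming and STAR for mapping to GRCm38, and deposited whole-number counts per gene, without normalization. The counting program, the annotation release and the use of strand are not given in the sources used here. A deposited table of normalized counts was not used.

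Libraries were grouped by their titles. In R 4.3.3, counts were filtered with filterByExpr of edgeR 4.0.16 (minimum count 10), scaled by TMM and compared with glmQLFit and glmQLFTest, with Benjamini-Hochberg adjustment. The standard error is the log2 fold change divided by the root of F. The limits were an adjusted p of 0.05 and an absolute log2 fold change of 1, as in the study. Of 49315 identifiers, 48970 matched a symbol. Exon length came from the count files. Libraries of a group differed by more than sampling noise (chi-square per degree of freedom 6.70 to 37.1 over 12 pairs). Each library is a separate pup, and counting error is small at these depths beside the spread between pups. The fit was tested on simulated data.

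Members and lists were chosen with earlier results of these data known. Outside the members, the genes named are those of each list that were differentially expressed and the 2 of largest mean normalized count, apart from 1 that is not reported here. *Tcf7l1*, *Tcf7l2*, *Wnt7a*, *Wnt7b*, *Ndp*, *Abcg2*, *Cldn5*, *Ocln*, *Abcb1a*, *Tjp1*, *Notumos*, *Myadml2os*, *Gm43352*, *Gm11670*, *Brf2*, *Gm30270* and some of the cell type markers were named after their values were seen. Alternatives were DESeq2 1.42.0, its size factors, other filters on low counts, a fold test (glmTreat), a block for the replicate number or for the prefix of the label, and each library left out.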

Additional observations from a re-analysis of the deposited data

Results flagged for a closer look

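*Fzd10* in wild type replicate 4 had 1.05 normalized counts, where the other 3 wild-type libraries had between 13.8 and 15.9. Its gap to the nearest of them, divided by the range of the group, was 0.855, above Dixon's critical value for 4 libraries. It was the only flag among 104 groups checked (52 genes in each condition), where chance gives about 1 in 20 groups.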

How the results depend on the processing

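The limits of 0.05 and 1 gave 2356 differentially expressed genes, of which 1360 were lower. A test against a log2 fold change of 1 (glmTreat) gave 736 and 309, and called 4 of the 10 members (*Lef1*, *Apcdd1*, *Nkd1* and *Notum*, adjusted p between 0.00271 and 0.0289, edgeR) in place of 7 and 12 other pathway genes in place of 28. This test is stricter by construction, and *Axin2* missed it at an adjusted p of 0.0560 (edgeR). When 1 library at a time was left out, differentially expressed genes numbered 2168 to 2662, those lower 1178 to 1604, the members 6 to 7 and the other pathway genes 26 to 31. The receptor median was then -0.44 to -0.34 and the target median -1.91 to -1.60. *Reck* alone among the members crossed the fold limit, at -0.92 without mutant replicate 1, -0.96 without mutant replicate 4, -0.97 without wild type replicate 1 and -0.96 without wild type replicate 4. DESeq2 gave 2693 genes, and it, its size factors in edgeR, no filter on low counts and a filter of 1 CPM in 4 libraries each called 7 members. *Fzd4* passed under none of the alternatives, with 0.0521 as its lowest adjusted p (edgeR or DESeq2). With the replicate number as a block, 2431 genes were differentially expressed, 1399 lower, with 7 members and 29 other pathway genes, a receptor median of -0.39 and a target median of -1.80. Same-numbered libraries correlated at 0.201, 0.210, 0.290 and 0.0241 in their deviations from the group means, and mutant replicate 4 correlated best with wild type replicate 3 (0.384), so the numbers were not taken to pair the libraries. Wild-type pups were matched to mutant pups within litters, but the labels do not say which libraries share a litter. A block for the prefix of the label gave 2456 such genes, 1406 of them lower, with 7 members and 29 other pathway genes, a receptor median of -0.39 and a target median of -1.78. Neither block changed a call among the members. Depth did not limit the members, which had at least 185 reads in each library, but *Rspo1*, *Lgr6* and *Fzd10* rest on few reads.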
